A study of Mus musculus with 3 samples.

Results

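The signalling route that holds B cells inside germinal centres was followed through 6 genes in lymphoma cells of the pBIC2 mouse: *S1pr1*, *S1pr2* and *S1pr4*, which encode receptors for sphingosine-1-phosphate (S1P), *Gpr183*, which encodes the oxysterol receptor EBI2, *Gna13*, which encodes the G protein subunit Gα13, and *Arhgef1*, which encodes p115RhoGEF, an activator of the GTPase RhoA. They were taken by gene symbol from the deposited count tables, where each of the 6 had a single row among 37646 listed genes. The libraries came from C57BL/6 mice that carry floxed p53 and Blimp1 (p53F/F, Blimp1F/F), a constitutively active IKK2 allele behind a floxed stop (IKK2castopF/stopF), Cre driven from the Cγ1 locus (Cg1Cre/+) and a human BCL2 transgene under the Eµ enhancer (Eµ-hBCL2tg/+), and the labels class the disease as ABC-DLBCL, the activated B cell form of this aggressive lymphoma. Spleen cells positive for B220 and GFP were sorted, and polyA RNA was sequenced in 3 libraries, called tumours 1, 2 and 3 here. They form 1 group. All carry every allele and the transgene, Cre is made in B cells that transcribe the Cγ1 locus, and the labels do not state that each library is a separate animal. The germinal centre B cells named as controls in the study's design were not analysed here, so every value below is a level in lymphoma cells or a difference between lymphomas, with no contrast against normal cells.

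S1P is abundant in blood and lymph and scarce inside lymphoid tissue, and lymphocytes read this gradient. S1PR1 couples to Gαi and draws cells towards the exits. S1PR2 couples to Gα13, which acts through p115RhoGEF on RhoA to restrain migration and AKT signalling and keeps germinal centre B cells clustered at the follicle centre, whereas EBI2 draws activated B cells to the outer follicle and is normally low in germinal centre B cells. In human lymphomas of germinal centre origin, GNA13 and S1PR2 are recurrently inactivated by mutation. The counts here are of mRNA and bear neither on mutation nor on receptor protein.

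Promoter windows of 300 bases (250 before and 50 after the annotated start, RefSeq, build GRCm38.p6) were found for 5 of the 6 genes, all but *S1pr1*. The windows of *S1pr2* (chr9:20976744-20977043), *S1pr4* (chr10:81500088-81500387), *Gpr183* (chr14:121965144-121965443), all on the minus strand, and *Gna13* (chr11:109362544-109362843, plus strand) are shown because they differ widely in CpG content, a feature the choice of genes did not use. Each reads 5′ to 3′ with CpG dinucleotides in capitals.
S1pr2: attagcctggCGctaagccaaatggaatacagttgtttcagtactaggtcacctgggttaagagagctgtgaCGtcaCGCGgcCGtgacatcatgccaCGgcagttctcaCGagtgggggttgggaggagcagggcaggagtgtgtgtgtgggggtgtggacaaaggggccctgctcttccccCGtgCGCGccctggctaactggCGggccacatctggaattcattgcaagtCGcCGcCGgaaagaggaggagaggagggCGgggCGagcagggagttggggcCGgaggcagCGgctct
S1pr4: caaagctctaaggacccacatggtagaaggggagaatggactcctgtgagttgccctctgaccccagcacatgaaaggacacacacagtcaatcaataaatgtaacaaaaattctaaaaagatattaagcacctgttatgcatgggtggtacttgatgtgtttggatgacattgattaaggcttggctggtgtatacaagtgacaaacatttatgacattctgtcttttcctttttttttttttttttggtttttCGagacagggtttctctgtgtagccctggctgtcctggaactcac
Gpr183: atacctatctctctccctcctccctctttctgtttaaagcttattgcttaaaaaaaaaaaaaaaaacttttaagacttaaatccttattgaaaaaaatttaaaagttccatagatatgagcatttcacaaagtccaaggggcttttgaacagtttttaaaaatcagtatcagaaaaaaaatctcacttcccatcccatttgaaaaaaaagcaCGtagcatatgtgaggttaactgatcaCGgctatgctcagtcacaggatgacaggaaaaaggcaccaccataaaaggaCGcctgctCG
Gna13: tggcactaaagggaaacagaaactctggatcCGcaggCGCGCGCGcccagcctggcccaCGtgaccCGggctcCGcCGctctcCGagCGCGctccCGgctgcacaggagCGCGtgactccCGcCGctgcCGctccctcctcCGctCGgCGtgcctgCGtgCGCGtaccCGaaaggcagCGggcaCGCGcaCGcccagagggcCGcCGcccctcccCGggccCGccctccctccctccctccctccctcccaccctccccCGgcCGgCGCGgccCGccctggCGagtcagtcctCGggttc
The *Gna13* window held 40 CpGs and the *S1pr2* window 18, against 4 for *Gpr183* and 1 for *S1pr4*. Observed over expected CpG was 0.960 for *Gna13*, 0.669 for *S1pr2*, 0.443 for *Gpr183* and 0.0797 for *S1pr4*, where the median of 32851 mouse windows was 0.384. *Arhgef1* had 2 annotated windows, with ratios of 0.914 and 0.715. The windows of *Gna13*, *Arhgef1* and *S1pr2* thus lay above that median by this ratio, *Gpr183* lay slightly above it and *S1pr4* below it. The motif CACCC (the KLF core, either strand) occurred once each in the windows of *S1pr2*, *S1pr4*, *Gna13* and the upstream *Arhgef1* window and was not found in the *Gpr183* window or the other *Arhgef1* window, and 57.5% of all windows hold it. The FOXO motif GTAAACA, held by 3.65% of all windows on either strand, and the NF-κB motif, held by 8.46%, had no match in the 6 windows of these genes. A CACCC match can lie inside an NF-κB match, but none could here because these windows held no NF-κB match. A letter match is a description, not a bound site.

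The libraries held 15576975, 16477997 and 17014022 gene counts, and CPM below are counts scaled by these totals. The B cell label held: every library had each of 7 B cell markers at 10 CPM or more, and the lowest median of the list was 887 CPM. Germinal centre markers were sparse, with 1 of 7 (*Mef2b*) at 10 CPM or more in every library and *Gcsam* without a count. T cell markers stood apart in tumour 3, where 9 of 11 were highest, and the list's median, taken in the order of tumours 1, 2 and 3, was 0.835, 5.77 and 66.7 CPM. Of the 11, 8 were lowest in tumour 1. Their summed level of 298, 109 and 1259 CPM had another order, because *Tcf7* (141, 11.3 and 209 CPM), *Lck* (66.5, 23.3 and 208 CPM) and *Cd5* (79.5, 33.6 and 16.7 CPM) made up most of it in tumour 1. *Cd3e* had no count in tumour 1, 23 counts in tumour 2 and 1023 in tumour 3. Summed levels in tumours 1, 2 and 3 were 1.80, 2.43 and 50.4 CPM for 6 NK cell markers, 10.7, 77.4 and 18.0 CPM for 8 macrophage markers, and 0.193, 16.3 and 42.3 CPM for 6 neutrophil markers. They were 157, 177 and 333 CPM for 7 endothelial and stromal markers, nearly all of it *Pecam1*, which B cells also express, and 62.1, 47.9 and 32.3 CPM for 4 plasmacytoid dendritic cell markers, mostly *Bst2*. The 7 follicular and marginal zone markers summed to 772, 774 and 997 CPM and the 6 plasma cell markers, led by *Irf4*, to 657, 473 and 309 CPM. In a bulk library, fewer cells of a type and less RNA per cell cannot be told apart. The median gene with a mean of at least 1 CPM was higher in tumour 3 than in tumour 1 by 0.14 on the log2 scale (0.03 with DESeq2 size factors), so small excesses in tumour 3 are to be read against that shift. The common biological coefficient of variation between libraries, from edgeR, was 0.446.

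A level of 10 CPM or more in every library was reached by 5 of the 6 genes, against 20.5% of all listed genes. The exception was *S1pr2*. Among the 12461 genes with a mean of at least 1 CPM, which include all 6, 7718 reached that level. All 6 were highest in tumour 3, against 40.5% of genes with a mean of at least 1 CPM, and remained so with TMM factors (37.8% of genes) and DESeq2 size factors (35.7%). Tumour 3 is also the library with the T cell markers, whose part in these levels was not tested. Of the 6, *S1pr2*, *S1pr4*, *Gna13* and *Arhgef1* were lowest in tumour 2, against 29.8% of genes, though *S1pr2* and *Arhgef1* differed there from tumour 1 by less than counting error. *Gpr183* joined them with DESeq2 size factors.

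**Figure D1:**
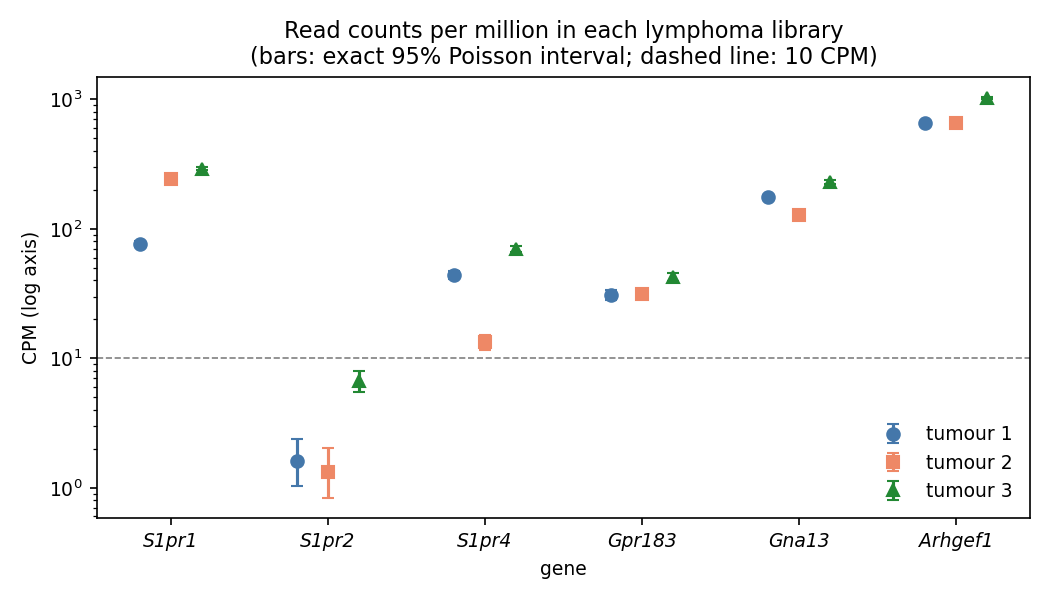
CPM of the 6 genes (log axis) in each lymphoma library, with exact 95% Poisson intervals of the count as bars. *S1pr2* stays below 10 CPM in the 3 libraries, and the tumour 3 triangle is the highest point for every gene.

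Among the receptors, *S1pr1* was the most abundant and differed strongly between lymphomas. *S1pr1* (ENSMUSG00000045092.8, 2 exons, mm10 chromosome 3, 115710433 to 115715072, minus strand) was at 76.5, 244 and 292 CPM in tumours 1, 2 and 3 (204 ± 113, SD, n = 3). Tumour 1 was low and tumours 2 and 3 lay close together. The ratio to tumour 1 was 3.19 in tumour 2 (95% counting interval 2.99 to 3.41) and 3.81 in tumour 3 (3.58 to 4.06), while tumour 3 exceeded tumour 2 by 1.19-fold (1.15 to 1.25). The intervals cover counting error only, since each lymphoma has 1 library. The SD of log2 CPM was 1.05, at percentile 81.5 of 12461 genes with a mean of at least 1 CPM, whose median was 0.44, and it was 0.18 without tumour 1. T cells and endothelium also express *S1pr1*. The median of the T cell markers was lowest in tumour 1 and highest in tumour 3, the order of *S1pr1*, while their sum was lowest in tumour 2, and the part of T cells in the *S1pr1* level was not tested. The endothelial genes *Cdh5* (1.605, 2.31 and 2.70 CPM), *Kdr* (0, 1 and 2 counts) and *Tek* (no count) were near 0 in all libraries. *Pecam1* of the same list, which B cells also express, was at 147, 175 and 329 CPM, the order of *S1pr1*. The part of endothelium in the *S1pr1* level was not tested. The follicular B cell genes *Cr2* (CD21) and *Fcer2a* (CD23) were also lowest in tumour 1, *Cr2* at 8.28, 148 and 299 CPM and *Fcer2a* at 3.66, 30.4 and 23.9 CPM, and their part in the *S1pr1* level was not tested.

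*S1pr2*, the Gα13-coupled confinement receptor, was close to silent. It had 25, 22 and 113 counts in tumours 1, 2 and 3, which are 1.605, 1.34 and 6.64 CPM (3.19 ± 2.99, SD, n = 3; ENSMUSG00000043895.6, chromosome 9, 20962361 to 20976781, minus strand). Tumours 1 and 2 were not distinguishable at this depth, with a ratio of tumour 2 to tumour 1 of 0.832 (0.447 to 1.54), and tumour 3 lay above both. It was 4.14-fold (2.66 to 6.66) above tumour 1 and 4.97-fold (3.13 to 8.25) above tumour 2. The mean without tumour 3 was 1.47 CPM. The germinal centre genes *Bcl6* (0.449, 2.61 and 15.1 CPM), *Fas* (0.128, 1.70 and 15.8 CPM) and *Mybl1* (0.899, 0.850 and 4.41 CPM) were likewise highest in tumour 3, whereas *Rgs13* was highest in tumour 2 (89.1 CPM) and *Mef2b* in tumour 1 (152 CPM). Of the 5 markers of that list with a mean of at least 1 CPM, 3 were highest in tumour 3, and the summed list was highest in tumour 1 (154, 118 and 73.0 CPM). Their part in the *S1pr2* level was not tested.

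*S1pr4*, a receptor of haematopoietic cells, ranged about as widely as *S1pr2*, at a far higher level. Its levels in tumours 1, 2 and 3 were 44.1, 13.4 and 69.8 CPM (42.4 ± 28.3, SD, n = 3; ENSMUSG00000044199.6, 1 exon, chromosome 10, 81497747 to 81500132, minus strand). Here tumour 2 was the low library, unlike for *S1pr1*. The ratio of tumour 3 to tumour 2 was 5.23 (4.53 to 6.07), that of tumour 1 to tumour 2 was 3.30 (2.83 to 3.86) and that of tumour 3 to tumour 1 was 1.58 (1.44 to 1.74). The SD of log2 CPM was 1.23 (percentile 84.2) and fell to 0.47 without tumour 2. T cells express *S1pr4* as well. Of the 11 T cell markers, 8 were lowest in tumour 1 and not in tumour 2, and 9 were highest in tumour 3, as *S1pr4* was. The sum of the list did have the order of *S1pr4*, and *Tcf7*, *Lck* and *Cd5* made up most of that sum in tumour 1. The part of T cells in the *S1pr4* level was not tested. *S1pr2* and *S1pr4* were the only 2 of the 6 genes whose highest library was at least 4-fold above the lowest, against 19.3% of genes with a mean of at least 1 CPM. Without tumour 2 only *S1pr2* passed 4-fold, and without tumour 3 neither did.

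The other S1P receptors completed the picture of the family. *S1pr3*, which couples to several G proteins and is expressed by marginal zone B cells in the mouse, had 50 counts in tumour 1, 1670 in tumour 2 and 1947 in tumour 3, or 3.21, 101 and 114 CPM. Tumours 2 and 3 exceeded tumour 1 by 31.6-fold (23.8 to 42.7) and 35.7-fold (26.9 to 48.2). *S1pr5*, known from NK cells, had 0, 3 and 51 counts. In tumour 1 a count of 0 allows up to 0.193 CPM, with 3 counts taken as the limit in place of the exact Poisson interval. The NK and cytotoxic cell genes *Prf1* and *Gzma* were also highest in tumour 3 (41.7 and 7.64 CPM), while *Klrb1c* had 26, 1 and 0 counts and *Ncr1* none in any library. T cells of the cytotoxic kind also express *Prf1* and *Gzma*, and their part in the *S1pr5* counts was not tested.

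Per kilobase of exon (RPKM), so that genes can be compared, *S1pr1* held 56.4%, 73.7% and 62.7% of the summed level of the 5 S1P receptors in tumours 1, 2 and 3. *S1pr4* supplied 41.5% in tumour 1, 5.15% in tumour 2 and 19.2% in tumour 3. *S1pr3* supplied 1.62%, 20.9% and 16.8%. The second receptor was therefore *S1pr4* in tumour 1, *S1pr3* in tumour 2, and either of them at similar shares in tumour 3. *S1pr2* held 0.452%, 0.154% and 0.546%.

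**Figure D2:**
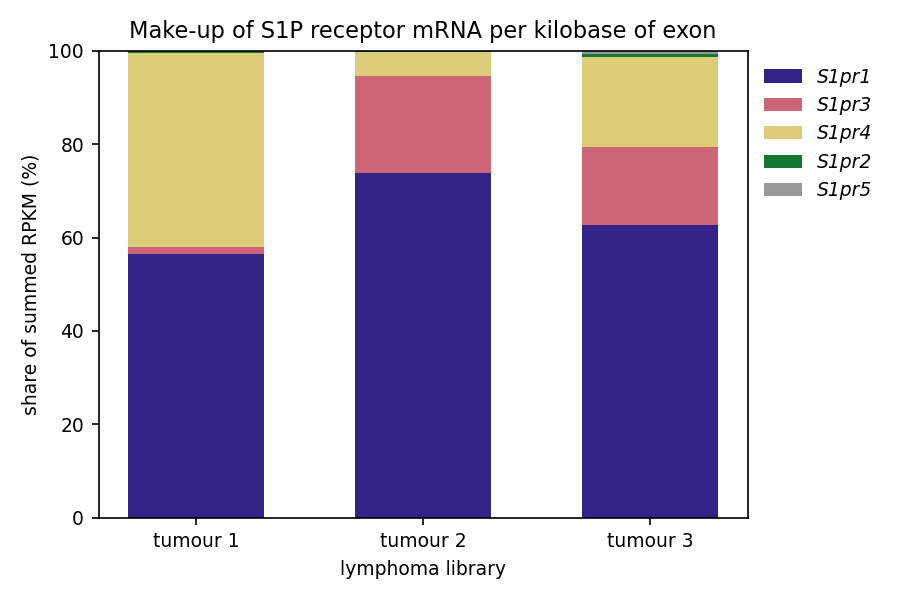
Share (%) of the summed RPKM of *S1pr1* to *S1pr5* in each lymphoma library. *S1pr1* is the largest part of each bar (56.4% to 73.7%), *S1pr3* is nearly absent from tumour 1 (1.62%), and *S1pr2* is at most 0.546%.

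*Gpr183* varied little between the lymphomas. Its levels in tumours 1, 2 and 3 were 30.9, 31.6 and 42.5 CPM (35.0 ± 6.48, SD, n = 3; ENSMUSG00000051212.8, chromosome 14, 121952551 to 121965195, minus strand). Tumours 1 and 2 differed by less than counting error, at a ratio of tumour 2 to tumour 1 of 1.02 (0.901 to 1.16). Tumour 3 was 1.37-fold (1.22 to 1.54) above tumour 1, and 1.27-fold with DESeq2 size factors. The SD of log2 CPM over the 3 libraries was 0.25, at percentile 24.3, and its percentile ranged from 3.65 without tumour 3 to 45.0 without tumour 1.

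The enzymes that make the EBI2 ligand were at or near 0 in the lymphoma cells. *Ch25h*, which forms the oxysterol precursor, had no count in any library, *Cyp7b1*, which completes the ligand, had 0, 0 and 1 counts, and *Cyp27a1* had 1, 7 and 11 counts. *Hsd3b7*, which inactivates the ligand, was not analysed here.

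Downstream of the receptors, *Gna13* was expressed well above *S1pr2* in every library. *Gna13* (ENSMUSG00000020611.14, chromosome 11, 109362831 to 109401369, plus strand) was at 177, 129 and 229.9 CPM in tumours 1, 2 and 3 (179 ± 50.5, SD, n = 3). Tumour 2 was low and tumour 3 high, with ratios of tumour 3 to tumour 2 of 1.78 (1.69 to 1.88) and of tumour 3 to tumour 1 of 1.30 (1.24 to 1.36). The SD of log2 CPM was 0.42 (percentile 47.3), close to that of the median gene. Exons of *Gna13* overlap 151 bases of the antisense gene *Gm11696*, which had 71, 65 and 132 counts, and the strand setting of the counting is not given in the sources used here. Reads in those bases cannot be assigned to either gene with certainty.

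*Arhgef1* was the most abundant of the 6 genes. *Arhgef1* (ENSMUSG00000040940.18, chromosome 7, 24902912 to 24926594, plus strand, 29 exons in its longest transcript) was at 652, 651 and 1029 CPM (777 ± 218, SD, n = 3), at percentile 99.1 of genes with a mean of at least 1 CPM. Tumours 1 and 2 were indistinguishable, with a ratio of tumour 2 to tumour 1 of 0.9996 (0.973 to 1.03), and tumour 3 was 1.58-fold (1.54 to 1.62) above tumour 1. The SD of log2 CPM was 0.38 (percentile 42.7).

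In RPKM the order of the means was *Arhgef1* (101 ± 28.2), *S1pr1* (67.0 ± 37.1), *Gna13* (27.8 ± 7.87), *S1pr4* (17.8 ± 11.8), *Gpr183* (12.1 ± 2.25) and *S1pr2* (0.401 ± 0.375; SD, n = 3 each). Within each library, the log2 RPKM of neighbours in this order was compared as a paired difference. *Arhgef1* exceeded *S1pr1* by 0.76 ± 0.87, *S1pr1* exceeded *Gna13* by 1.09 ± 1.10 and *S1pr4* exceeded *Gpr183* by 0.27 ± 1.07, differences smaller than their spread. *S1pr1* lay below *Gna13* in tumour 1 (25.1 against 27.6 RPKM) and above it in the other two, and *S1pr4* lay below *Gpr183* in tumour 2 (5.60 against 10.95 RPKM). *Gna13* exceeded *S1pr4* in 3 of 3 libraries, by 0.90 ± 0.82, barely more than the spread.

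The wide gap was that to *S1pr2*. *Gpr183* exceeded it by 5.22 ± 0.96 (log2 RPKM), *S1pr4* by 5.49 ± 0.81 and *S1pr1* by 7.48 ± 1.12, each in 3 of 3 libraries. A two-sided exact sign-flip permutation test gave p = 0.25 for each of these 3 differences, the smallest value that 3 libraries allow, and 0.35 after Benjamini-Hochberg adjustment over the 7 pairs compared. With the longest transcript in place of the exon union as length, the direction of all 7 was unchanged, but *Arhgef1* exceeded *S1pr1* by 1.63, more than the spread.

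**Figure D3:**
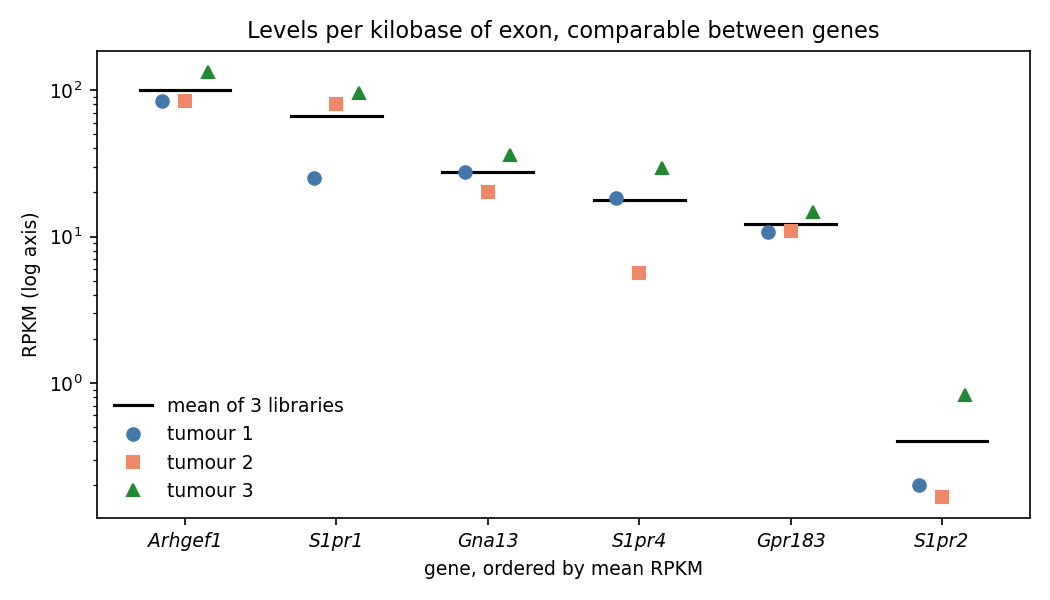
RPKM (log axis) of the 6 genes in order of their mean (black bar), with each lymphoma library as a point. *S1pr2*, at 0.167 to 0.833 RPKM, is separated from the other genes, which lie between 5.60 and 133 RPKM and overlap with their neighbours.

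By the Euclidean distance between log2 CPM profiles over the 3 libraries, each centred on its own mean, *Gpr183*, *Gna13* and *Arhgef1* were close to each other (0.18 to 0.37), and *S1pr1* and *S1pr4* were the farthest pair (2.42). Among 8290 other genes with a mean of at least 10 CPM, 1120 lay nearer than 0.25 to *Gpr183*, 662 to *Arhgef1* and 421 to *Gna13*, so likeness to these flat profiles is common. For *S1pr1*, 30 genes lay within that distance, and the nearest were *Pip4k2a* (0.0183), *Hspa8* (0.0320) and *Cacna1i* (0.0836). *Hspa8*, a constitutive heat shock chaperone, was at 214, 690.0 and 841 CPM. For *S1pr4*, 8 genes lay within it, with *Coro2a* (0.0403), *Thoc2l* (0.140) and *Mta1* (0.145) nearest, and for *S1pr2* also 8, with *Bcl9l* (0.118), *Sipa1* (0.135) and *Stard10* (0.139) nearest. The nearest to *Gpr183* were *Zfp518a*, *Trappc9* and *Nfatc3*, to *Gna13* *Tmc6*, *Thap11* and *Bud13*, and to *Arhgef1* *Pak2*, *Rela* and *Pbxip1*. With 3 points per profile, the distances only describe these libraries.

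The wider pathway was read in 8 lists with 51 genes measured. Of these, 34 were at 10 CPM or more in every library, against 20.5% of all listed genes. A mean of at least 1 CPM was held by 45, the 34 included. Of all 12461 genes with such a mean, 7718 reached 10 CPM in every library. Among the 45, 18 were highest in tumour 1, 6 in tumour 2 and 21 in tumour 3, against 29.9%, 29.6% and 40.5% of all genes with such a mean, and 11 had a range of at least 4-fold, against 19.3%.

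Genes that make, move and remove S1P were uneven. *Sgpl1*, the lyase that degrades S1P irreversibly, was at 402, 197 and 148 CPM, highest in tumour 1, where it exceeded tumour 3 by 2.72-fold (2.60 to 2.85). *Plpp3*, a lipid phosphate phosphatase of the plasma membrane, was at 10.8, 122 and 102 CPM, low in the same library as *S1pr1* and *S1pr3*, and its relative *Plpp1* was at 0.449, 11.6 and 2.12 CPM. Of the 2 sphingosine kinases, *Sphk2* was at 91.5, 72.5 and 57.7 CPM and *Sphk1* had 1, 1 and 2 counts. In this list of 10 genes, 6 were highest in tumour 1, 2 in tumour 2 and 1 in tumour 3 among the 9 with a mean of at least 1 CPM. Of the genes for the glutathione-based ligand of P2RY8, a further Gα13-coupled receptor known from human B cells, the exporter *Abcc1* was at 17.3, 67.2 and 72.7 CPM and the degrading enzyme *Ggt5* had 0, 4 and 1 counts. *Abcc1* was 3.89-fold (3.41 to 4.47) higher in tumour 2 and 4.21-fold (3.69 to 4.82) higher in tumour 3 than in tumour 1.

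Of 8 further Gα subunits, 6 were at 10 CPM or more in every library. *Gnai2*, the Gαi subunit of lymphocyte chemotaxis, was at 732, 461 and 992 CPM, lowest in tumour 2 and highest in tumour 3 as *Gna13* was. *Gnai3* was at 91.7, 106 and 150.2 CPM, and *Gnas*, the subunit that raises cyclic AMP, at 95.01, 146 and 192 CPM. *Gna11* was at 69.9, 28.3 and 25.2 CPM and *Gna15* at 2.05, 0.243 and 1.70 CPM. *Gna11* was highest in tumour 1 and *Gna15* lowest in tumour 2, with its tumour 3 to tumour 1 ratio within counting error (0.830, 0.484 to 1.42), and *Gnai1* had 0, 0 and 12 counts.

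Of 9 genes for RhoGEFs, GTPases and their effectors, 8 were at 10 CPM or more in every library. *Rhoa*, the GTPase that p115RhoGEF activates, was at 294, 187 and 272 CPM, and *Diaph1*, a formin that RhoA activates, at 307, 182 and 252 CPM. Both were lowest in tumour 2. *Rhob* was at 113, 242 and 259 CPM, lowest in tumour 1, and *Rhoc* had 5, 2 and 186 counts. *Rhoc* is also expressed outside B cells, and the share of other cells in its tumour 3 counts was not tested.

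Genes of PI3K and AKT signalling, which Gα13 restrains in germinal centre B cells, reached 10 CPM or more in every library in 7 of 9 cases. *Pik3cd*, the leukocyte catalytic subunit p110δ, was at 325, 451 and 337 CPM, *Inpp5d*, the lipid phosphatase SHIP1, at 421, 228 and 352 CPM, and *Akt1* at 136, 104 and 166 CPM. The G protein-activated class was the variable part. *Pik3cg* (p110γ) was at 8.47, 55.7 and 101 CPM and its regulatory subunit *Pik3r5* at 5.78, 24.5 and 67.8 CPM, so tumour 3 exceeded tumour 1 by 11.9-fold (9.98 to 14.3) and 11.7-fold (9.47 to 14.7). In tumour 2, *Pik3cg* was 6.57-fold (5.47 to 7.94) and *Pik3r5* 4.23-fold (3.36 to 5.38) above tumour 1. T cells express both genes, the median of the T cell markers had the same order over the libraries, and the part of T cells was not tested.

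Every library had at least 10 CPM of each of the 8 genes listed under control of *S1pr1* transcription or surface level, and none had a 4-fold range. *Klf2*, a transcription factor that activates *S1pr1*, was at 775, 640 and 860 CPM. Its ratio of tumour 2 to tumour 1 was 0.825 (0.804 to 0.847), while that of *S1pr1* was 3.19. Tumour 3 exceeded tumour 1 by 1.11-fold (1.08 to 1.14) for *Klf2* and 3.81-fold for *S1pr1*. It exceeded tumour 2 by 1.34-fold (1.31 to 1.38) and 1.19-fold. Both genes were highest in tumour 3, and the part of *Klf2* in the *S1pr1* level was not tested. *Foxo1*, which acts upstream of *Klf2*, was at 43.8, 42.3 and 108 CPM, high only in tumour 3. *Grk2*, the kinase that marks S1PR1 for internalisation, was at 497, 461 and 692 CPM, *Dnm2*, a dynamin of endocytosis, at 214, 177 and 246 CPM, and *Arrb1* (β-arrestin) at 69.9, 26.3 and 40.4 CPM.

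**Figure D4:**
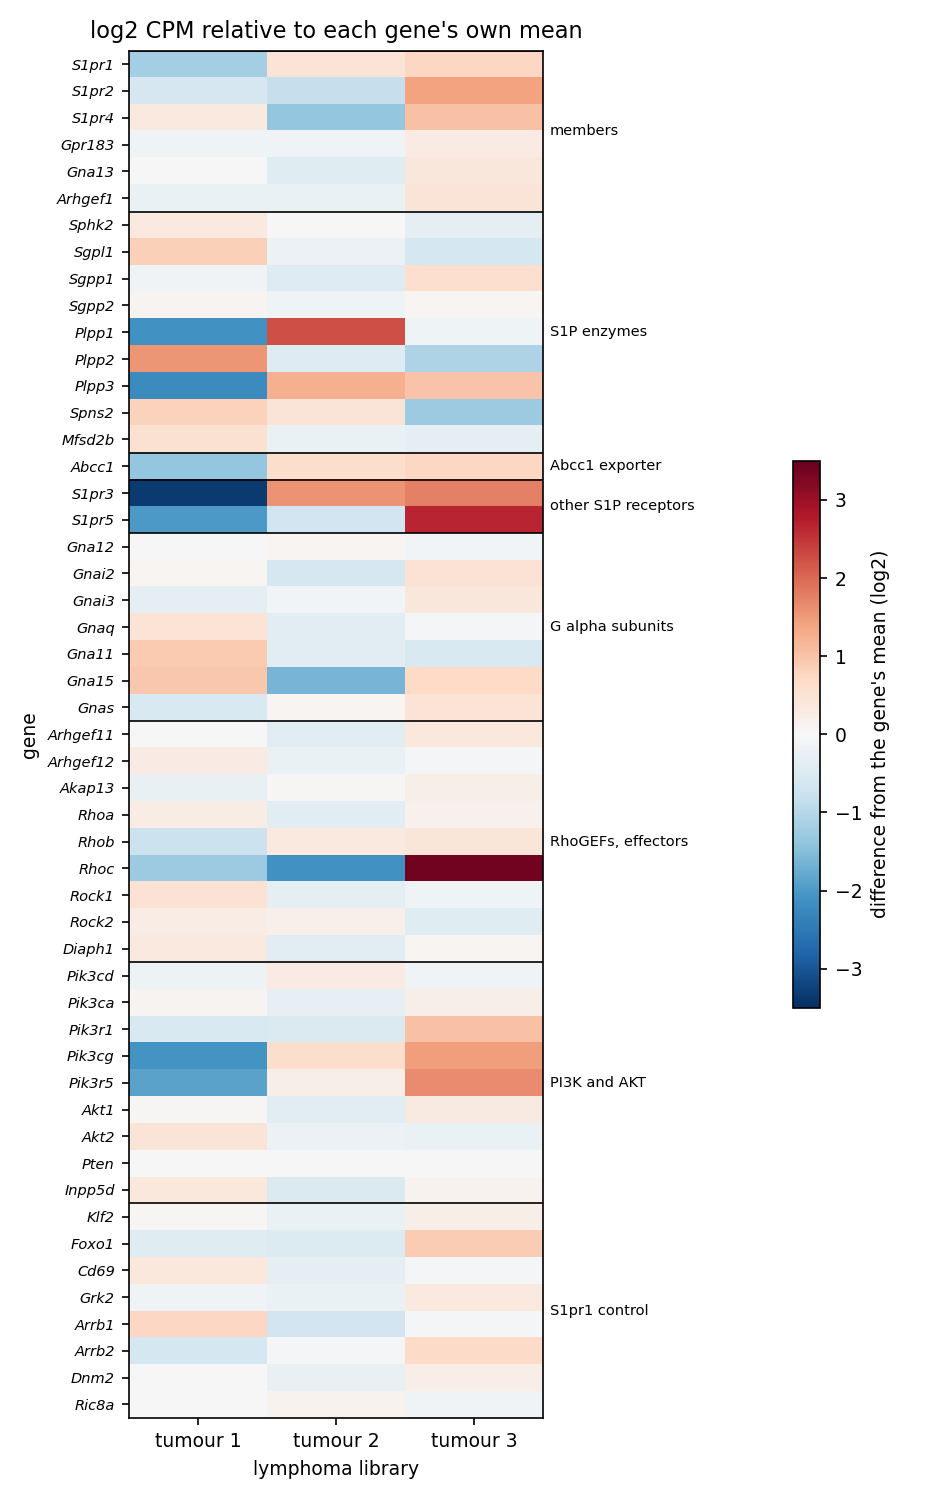
Log2 CPM of the 6 genes and of the 45 pathway genes with a mean of at least 1 CPM, as the difference from each gene's own mean over the 3 lymphoma libraries (colour, log2). *S1pr1*, *S1pr3*, *Plpp3*, *Abcc1*, *Pik3cg* and *Pik3r5* are lowest in tumour 1, while *S1pr4*, *Gna13* and *Gnai2* are lowest in tumour 2.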

How the data were processed

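Each deposited table holds raw, whole-number counts of 1 library. Per the submitters' processing notes, the authors used FastQC, STAR 2.5.2b and featureCounts 1.6.0, with mm10 as the genome. The reads were single-end, of 50 nt, from polyA RNA on a DNBseq instrument, per the labels. Annotation release and strandedness of the counting were not given in the sources used here. All 37646 rows name a gene.

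CPM were computed from total counts (15576975 to 17014022), and 3 counts are 0.193, 0.182 and 0.176 CPM in tumours 1, 2 and 3. Log2 CPM used a prior of 2 counts. RPKM used GENCODE M21 exon unions (37536 genes matched), which also gave coordinates. Intervals are 95% exact Poisson, or exact conditional binomial for ratios, and cover counting error only, since PCR copies cannot be removed without molecular identifiers. TMM factors and dispersion came from edgeR 4.0.16, size factors from DESeq2 1.42.0 (R 4.3.3), and the rest from Python 3.11.15 with SciPy 1.17.1, pandas 2.3.3, matplotlib 3.10.9 and NumPy 2.4.6. Steps were tested on simulated data.

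Library numbers follow accession order and are names only. The p-values come from the sign-flip test over these 3 libraries. That test gives 0.25 whenever the 3 differences share a sign, whatever their size or spread. The 6 genes, the 8 pathway lists and 10 marker lists were chosen with earlier results of these data known. Named were the 6 genes; in each pathway list all genes of lists of up to 4, otherwise the 3 of highest mean RPKM, the 2 of largest SD of log2 CPM and genes below 1 CPM; and the 3 nearest profiles per gene among genes with a mean of at least 10 CPM, leaving out immunoglobulin, T cell receptor, mitochondrial, ribosomal protein and predicted genes. Marker genes named were chosen after their values were seen, and 1 marker is not reported here. Alternatives covered scaling, prior, filter, thresholds, length and leaving out each library.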

Additional observations from a re-analysis of the deposited data

How the results depend on the processing

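Of 161 values computed under alternatives, 152 moved by less than the spread between libraries or kept their sign, 8 moved further and 1 reversed. For an SD of log2 CPM the limit was the SD itself, which is wide: leaving out 1 library took *S1pr1* from 1.05 to 0.18 (without tumour 1), and, without tumour 3, *S1pr2* from 1.21 to 0.17, *Gpr183* from 0.25 to 0.022 and *Arhgef1* from 0.38 to 0.00040. The number of the 6 genes with a 4-fold range (2) was 0 at an 8-fold limit and 0 to 2 when 1 library was left out (0 without tumour 3). The difference of *S1pr4* minus *Gpr183* (0.27, log2 RPKM) ranged from -0.088 (without tumour 3) to 0.89 when 1 library was left out. The other 5 that moved were percentiles of spread with 1 library left out: *S1pr1* 28.6 without tumour 1, *S1pr2* 27.7 without tumour 3, *S1pr4* 55.6 without tumour 2, *Gna13* 70.4 without tumour 1 and *Arhgef1* 0.0497 without tumour 3. With 3 libraries, removing any leaves a single pair, so the position of the removed library sets these values. The count of genes highest in tumour 3 under other scalings was chosen after seeing the data. No paired analysis was possible because the labels give 1 group and no shared replicate numbers, so the pairing of genes within a library is the only pairing used. Depth limits *S1pr2* most, with 22 to 113 counts.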
